A study of Mus musculus with 10 samples.

Results

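Airway secretory cell genes were examined as a set of 8 genes, Scgb1a1, Scgb3a1, Scgb3a2, Cyp2f2, Bpifa1, Bpifb1, Muc5b and Reg3g, which were taken by name from the 54532 genes of the deposited table. They were followed in bulk RNA-sequencing of whole lungs collected at P14 from wild-type C57/BL6 pups, male or female. In the IncPBF group (5 lungs) pulmonary blood flow was raised by a fistula made at P7 by puncture from the abdominal aorta into the inferior vena cava. In the sham group (5 lungs) the pups had the laparotomy at the same age without the puncture. The labels do not say whether lungs shared a litter, and all p-values measure the spread between these lungs. Values are FPKM, a level that corrects the sequenced fragments of a gene for the length of the gene and for the library size.

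The conducting airways of the mouse lung are lined mainly by club cells and ciliated cells. Club cells are secretory cells that release secretoglobins into the airway fluid, carry cytochrome P450 enzymes that metabolise inhaled chemicals, and can renew the airway lining after injury. Mucous cells, which make gel-forming mucins, are rare in the healthy lower airways of the mouse, and airway glands near the trachea add mucins and antimicrobial proteins. In bulk RNA of a lung, fewer cells of a type and less RNA per cell cannot be told apart.

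Depth was similar in all lungs, with 16103423 to 20318525 fragments on genes per lung, and for a gene of 1 kb the weight of 1 fragment was between 0.0482 and 0.0580 FPKM. Intervals given for single lungs are exact intervals at 95% and cover counting error only. Of the 5 IncPBF lungs, lungs 2 to 5 had 52.4 to 66.5 FPKM of the X inactivation RNA Xist, while IncPBF lung 1 had 0.0144 FPKM and the sham lungs had 0.00640 to 0.0770 FPKM, so that sex and group cannot be fully told apart. A fit with log2 Xist as a covariate therefore compares mainly IncPBF lung 1 with the sham lungs. A pair of lungs stood apart in the airway genes. Sham lung 5 was far below all other lungs in Scgb1a1, Scgb3a2 and Cyp2f2, and IncPBF lung 4 was far above all other lungs in Scgb3a1, Bpifb1, Muc5b and Reg3g, and highest in Bpifa1, at only 10 fragments. The group comparisons are therefore given with and without these lungs.

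The members split by the lung in which they were extreme, and their upstream sequences are shown along that split. The table of upstream regions from RefSeq (GRCm38.p6) matched Scgb3a1, Cyp2f2, Bpifa1, Bpifb1 and Reg3g, 5 of the 8 members. Their 250 bases before the first start site listed there are printed 5′ to 3′ on the strand of the gene. For Cyp2f2 that site is base 27119955, while the gene as annotated with the FPKM begins at 27119909, so the printed region ends inside it. Capitals mark letters of the motifs searched on both strands. These were TNTTTAC for forkhead factors, CAAGTG for NKX2-1, TTCNNNGAA for STAT factors, TTNCNNAA for CCAAT enhancer binding proteins, and TATAAA for the TATA box. Cyp2f2 at chr7:27119705-27119954 on the plus strand belongs to the genes that were lowest in sham lung 5.
Cyp2f2: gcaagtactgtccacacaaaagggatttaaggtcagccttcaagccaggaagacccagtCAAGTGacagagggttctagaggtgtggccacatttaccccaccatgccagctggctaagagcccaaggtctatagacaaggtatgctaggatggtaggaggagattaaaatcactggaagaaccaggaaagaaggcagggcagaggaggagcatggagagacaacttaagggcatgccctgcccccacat
The other regions belong to genes that were highest in IncPBF lung 4, Scgb3a1 at chr11:49663345-49663594 (plus strand), Bpifa1 at chr2:154142630-154142879 (plus strand), Bpifb1 at chr2:154190568-154190817 (plus strand, the first of 2 start sites in the table) and Reg3g at chr6:78468875-78469124 (minus strand).
Scgb3a1: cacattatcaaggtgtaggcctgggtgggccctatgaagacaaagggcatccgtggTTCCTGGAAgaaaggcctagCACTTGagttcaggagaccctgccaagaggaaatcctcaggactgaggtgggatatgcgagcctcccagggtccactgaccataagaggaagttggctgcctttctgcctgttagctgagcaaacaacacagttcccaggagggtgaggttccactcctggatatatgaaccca
Bpifa1: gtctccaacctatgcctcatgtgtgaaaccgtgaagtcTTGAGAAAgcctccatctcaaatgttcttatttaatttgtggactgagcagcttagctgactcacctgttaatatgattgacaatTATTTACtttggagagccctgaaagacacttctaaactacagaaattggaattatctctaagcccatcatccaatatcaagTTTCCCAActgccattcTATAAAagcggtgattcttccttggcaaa
Bpifb1: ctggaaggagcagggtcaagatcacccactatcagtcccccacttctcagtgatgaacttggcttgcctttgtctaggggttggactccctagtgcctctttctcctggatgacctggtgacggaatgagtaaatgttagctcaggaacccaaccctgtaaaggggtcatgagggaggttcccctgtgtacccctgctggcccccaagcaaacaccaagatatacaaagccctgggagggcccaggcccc
Reg3g: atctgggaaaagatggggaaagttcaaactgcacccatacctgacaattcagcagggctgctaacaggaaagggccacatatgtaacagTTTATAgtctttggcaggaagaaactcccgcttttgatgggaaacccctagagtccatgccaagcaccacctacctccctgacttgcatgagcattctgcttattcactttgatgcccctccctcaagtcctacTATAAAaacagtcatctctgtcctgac

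The NKX2-1 letters stood 191 to 186 bases before the start of Cyp2f2 and, on the other strand, 174 to 169 bases before that of Scgb3a1, whose region also held the STAT letters 194 to 186 bases before the start. The region of Bpifa1 held the forkhead letters, 2 matches to the CCAAT enhancer binding letters and the TATA letters, and that of Reg3g held the TATA letters in 2 places, one of them on the other strand. None of the motifs matched the region of Bpifb1. No motif was shared by all 4 regions of the genes that were highest in IncPBF lung 4. Among 32851 upstream regions of the same length, the forkhead letters were found in 10.9%, the NKX2-1 letters in 11.6%, the STAT letters in 7.02%, the CCAAT enhancer binding letters in 36.8% and the TATA letters in 12.4%. No marked matches overlapped each other.

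Scgb1a1, the club cell secretory protein and the main secretoglobin of the distal airways, was the most abundant member by FPKM in every lung. It lies on the minus strand of chromosome 19 of GRCm38 (chr19:9083636-9087958, 3 exons, ENSMUSG00000024653). It had 5922, 6627, 4802, 10003 and 4853 FPKM in IncPBF lungs 1 to 5, and 6365, 6616, 11743, 5116 and 128 FPKM in sham lungs 1 to 5. The groups overlapped throughout, and the single low value was that of sham lung 5. Scgb1a1 ranked 1 to 4 among all genes by FPKM in the other lungs and 245 in sham lung 5. The level there rested on 1065 fragments and was 37.4-fold lower (95% interval 35.2 to 39.8) than in the next lowest lung, IncPBF lung 3.

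Scgb3a2, a secretoglobin made by club cells from early in airway development (chr18:43764289-43767399, plus strand, ENSMUSG00000038791), had 209, 232, 106, 430.0 and 141 FPKM in IncPBF lungs 1 to 5. In sham lungs 1 to 5 it had 154, 158, 439, 126 and 3.92 FPKM. Again sham lung 3 and IncPBF lung 4 were the highest and sham lung 5 was the lowest, 27.2-fold (21.0 to 35.7) below IncPBF lung 3, on 60 fragments.

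Cyp2f2, the club cell cytochrome P450 that activates naphthalene (chr7:27119909-27133660, plus strand, ENSMUSG00000052974), had 173, 172, 107, 211 and 140 FPKM in IncPBF lungs 1 to 5. In sham lungs 1 to 5 it had 184, 178, 346, 125 and 7.49 FPKM. Sham lung 5 was 14.4-fold (12.7 to 16.3) below IncPBF lung 3, on 264 fragments. Cyp2f2 overlaps the antisense gene Gm15883 on the other strand, which had at most 67 fragments in a lung, and reads of the overlap cannot be assigned without strand.

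The fall in sham lung 5 was thus not of equal size in these genes. Cyp2f2 amounted to 2.11 to 2.95 FPKM per 100 FPKM of Scgb1a1 in the other 9 lungs and to 5.83 in sham lung 5. Scgb3a2 per 100 FPKM of Scgb1a1 was 3.05 in sham lung 5, inside the range of 2.21 to 4.30 in the other lungs. The 8 members together took 0.272% to 0.690% of all fragments on genes in 9 lungs and 0.00779% in sham lung 5.

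**Figure D1:**
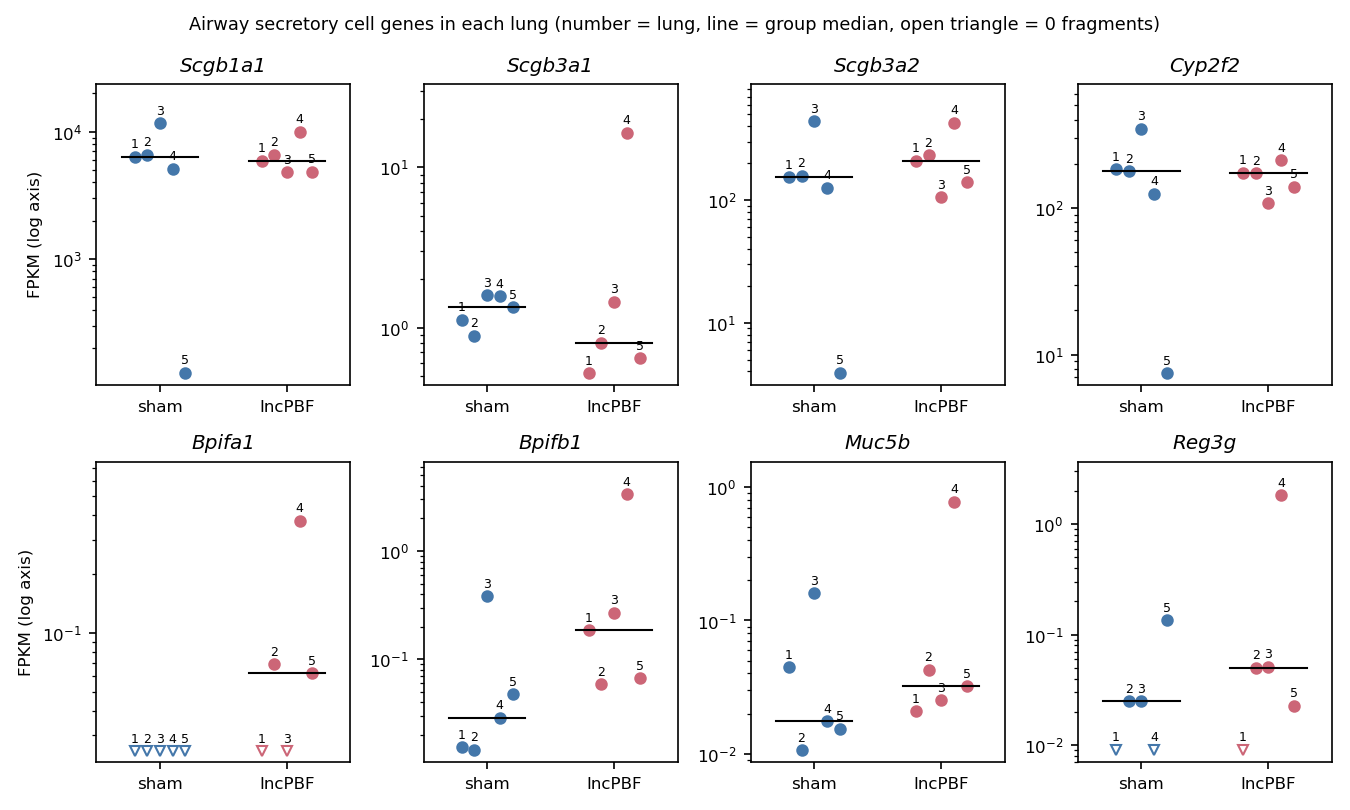
FPKM (log axis, scaled separately in each panel) of the 8 airway secretory cell genes in each sham lung (blue) and IncPBF lung (red), with the lung number beside each point, a line at each group median above 0, and open triangles for lungs with 0 fragments. Sham lung 5 lies lowest in Scgb1a1, Scgb3a2 and Cyp2f2, and IncPBF lung 4 lies highest in Scgb3a1, Bpifa1, Bpifb1, Muc5b and Reg3g.

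Scgb3a1, a secretoglobin of the larger airways and their secretory cells (chr11:49663610-49665118, plus strand, ENSMUSG00000064057), was far less abundant. It had 0.519, 0.803, 1.45, 16.5 and 0.644 FPKM in IncPBF lungs 1 to 5, and 1.12, 0.888, 1.60, 1.57 and 1.34 FPKM in sham lungs 1 to 5. The 16.5 FPKM of IncPBF lung 4 came from 170 fragments, against 6 to 18 fragments in each other lung, and was 10.3-fold (6.33 to 17.8) above the next highest lung, sham lung 3. Sham lung 5 lay among the other sham lungs here, unlike in the other secretoglobins.

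Bpifb1 and Bpifa1, lipid-binding defence proteins of the airway surface that are neighbours on chromosome 2, were close to the limit of detection in most lungs. Bpifb1 (chr2:154190818-154220369, plus strand) had 0.186, 0.0590, 0.269, 3.33 and 0.0666 FPKM in the IncPBF lungs and 0.0154, 0.0147, 0.382, 0.0289 and 0.0476 FPKM in the sham lungs. These levels came from 208 fragments in IncPBF lung 4, 26 in sham lung 3 and 1 to 18 in the others, and IncPBF lung 4 was 8.73-fold (5.79 to 13.7) above sham lung 3. Bpifa1 (chr2:154142880-154149219, plus strand) had 10 fragments in IncPBF lung 4, 2 each in IncPBF lungs 2 and 5, and 0 in IncPBF lungs 1 and 3 and in every sham lung. IncPBF lung 4 was 5.43-fold (1.16 to 51.0) above IncPBF lung 2. A count of 0 allows up to 3 fragments in a lung, so that only IncPBF lung 4 was clearly above what the sham lungs could hold.

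Muc5b, the gel-forming mucin that club cells and glands secrete (chr7:141839070-141873084, plus strand, 49 exons), had 0.0207, 0.0428, 0.0253, 0.778 and 0.0322 FPKM in the IncPBF lungs. In the sham lungs it had 0.0447, 0.0106, 0.160, 0.0175 and 0.0154 FPKM. IncPBF lung 4 held 201 fragments and sham lung 3, the next highest, held 45, a ratio of 4.87 (3.51 to 6.89) in FPKM. Reg3g, a secreted antibacterial lectin (chr6:78466269-78468872, minus strand), had 67 fragments in IncPBF lung 4 (1.84 FPKM) and at most 5 in any other lung, found in sham lung 5, which it exceeded 13.5-fold (5.52 to 43.0). In IncPBF lung 1 and sham lungs 1 and 4 it had 0 fragments.

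Highest-to-lowest ratios over the 10 lungs were 91.4 for Scgb1a1, 112 for Scgb3a2 and 46.3 for Cyp2f2. No such ratio is given for the other members, whose lowest lungs held 6 fragments for Scgb3a1, 3 for Muc5b, 1 for Bpifb1 and 0 for Bpifa1 and Reg3g. Within the sham group the SD of log2(FPKM + 0.1) was 2.62 for Scgb1a1, 2.59 for Scgb3a2 and 2.16 for Cyp2f2, against a median of 0.17 over all tested genes. Without sham lung 5 these SDs were 0.51, 0.81 and 0.61, larger than those of 91.6%, 96.6% and 94.0% of tested genes. Within the IncPBF group the SD of Scgb3a1 was 1.95, and 0.57 without lung 4. Scgb1a1, Scgb3a2 and Cyp2f2 therefore varied between sham lungs more than most genes did also when the extreme lung was left out.

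Levels of IncPBF and sham lungs were compared by limma on log2(FPKM + 0.1) over all genes whose mean FPKM reached 0.5, IncPBF against sham. Scgb1a1, Scgb3a2, Cyp2f2 and Scgb3a1 passed this filter, while Bpifa1, Bpifb1, Muc5b and Reg3g did not. None of the 4 members tested passed an adjusted p of 0.05, against 32.3% of all 15388 tested genes (16.1% upregulated and 16.2% downregulated). The count was also 0 at an unadjusted p of 0.05, which 43.2% of tested genes passed. With limma-voom on the fragments 0 of 4 passed the adjusted threshold, where 35.8% of tested genes did. Without a filter 0 of 8 members passed it, where only 13.4% of genes did. The groups overlapped for all 8 members, whereas they did not overlap for 23.2% of tested genes.

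The mean FPKM of Scgb1a1 was 6441 ± 2133 in IncPBF lungs and 5994 ± 4146 in sham lungs (SD, n = 5 each). Its log2 fold change was 0.96 with an SE of 1.01 (95% interval -1.26 to 3.18, limma adjusted p = 0.501), and an exact permutation test over all assignments of the lungs, two-sided, gave p = 0.770. Scgb3a2 had 224 ± 126 against 176 ± 160 FPKM, a log2 fold change of 1.17 (SE 1.02, interval -1.07 to 3.41, limma adjusted p = 0.413) and an exact permutation p of 0.452. Cyp2f2 had 161 ± 38.9 against 168 ± 122 FPKM, a log2 fold change of 0.63 (SE 0.83, interval -1.19 to 2.45, limma adjusted p = 0.599) and an exact permutation p of 0.802. For Scgb3a1 the means were 3.98 ± 6.995 and 1.30 ± 0.304 FPKM, with a log2 fold change of 0.22 (SE 0.75, interval -1.43 to 1.87, limma adjusted p = 0.848) and an exact permutation p of 0.968. For each gene the difference was smaller than the spread between lungs, and the intervals include changes of more than 2-fold in either direction.

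Leaving out sham lung 5 turned the log2 fold change of Scgb1a1 to -0.19 (SE 0.29, limma adjusted p = 0.662) and that of Cyp2f2 to -0.31 (SE 0.27, limma adjusted p = 0.442), and brought that of Scgb3a2 to 0.05 (SE 0.43, limma adjusted p = 0.943). Leaving out IncPBF lung 4 turned that of Scgb3a1 to -0.62 (SE 0.27), at an unadjusted limma p of 0.0465 and an adjusted p of 0.123. With both lungs left out, an alternative chosen after seeing the data, the values were -0.37 for Scgb1a1, -0.22 for Scgb3a2, -0.41 for Cyp2f2 and -0.60 for Scgb3a1. None of the 4 passed the adjusted threshold in any of these fits, in which 26.5%, 25.1% and 20.4% of tested genes passed it, in the same order. The sign of the difference thus turned in Scgb1a1 and Cyp2f2 with sham lung 5, in Scgb3a1 with IncPBF lung 4, and in Scgb3a2 only with both. Over all alternatives tried, the adjusted p ran from 0.308 to 0.957 for Scgb1a1, from 0.1997 to 0.943 for Scgb3a2, from 0.146 to 0.930 for Cyp2f2 and from 0.123 to 0.971 for Scgb3a1.

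**Figure D2:**
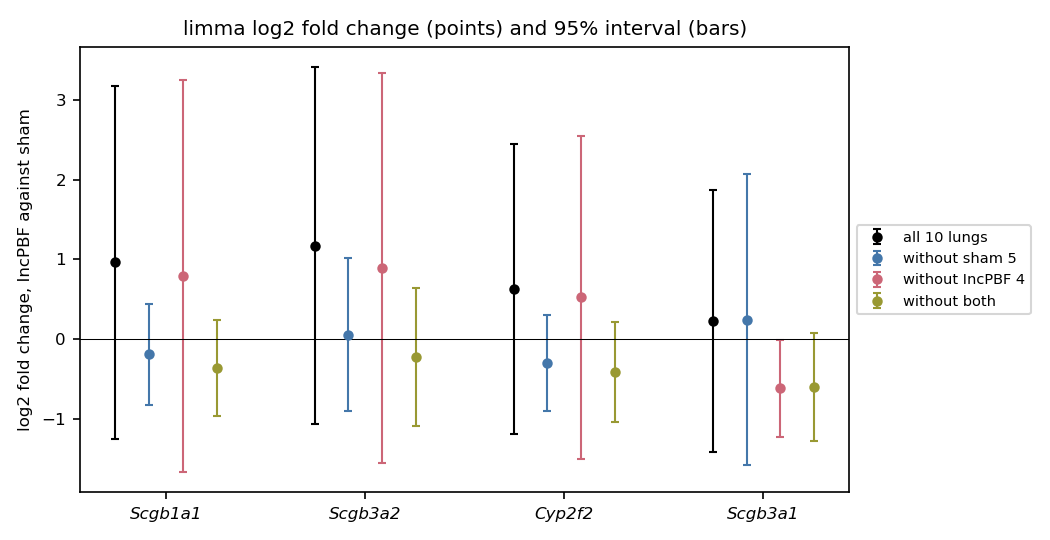
Log2 fold change of IncPBF against sham by limma (points) with its 95% interval (bars) for the 4 members past the filter, over all 10 lungs, without sham lung 5, without IncPBF lung 4 and without both. The interval of Scgb1a1 runs from -1.26 to 3.18 with all lungs, and with both lungs left out all 4 points lie below 0.

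Scgb1a1, Scgb3a2 and Cyp2f2 rose and fell together from lung to lung. On the log2 scale over the 10 lungs, Scgb1a1 and Scgb3a2 gave Pearson's r = 0.99 (permutation p = 7.0e-05, adjusted p = 0.000117) and Spearman's rho = 0.95 (permutation p = 0.00012, adjusted p = 0.0006). Scgb1a1 and Cyp2f2 gave r = 0.99 (permutation p = 1.0e-05, the smallest that 100000 resamples can give, adjusted p = 5.0e-05) and rho = 0.90 (permutation p = 0.00094, adjusted p = 0.00188). Without sham lungs 3 and 5, the farthest from the median of Scgb1a1, r was 0.92 and 0.86. Scgb3a1 did not follow them, with r = 0.14 to Scgb1a1 (permutation p = 0.476, adjusted p = 0.529) and rho = 0.27 (permutation p = 0.448, adjusted p = 0.641). Without sham lungs 3 and 5 this r was 0.73. That value keeps IncPBF lung 4, which was 10.3-fold above the next lung in Scgb3a1, and was not computed without it. These correlations belong to 10 pairs examined, over which p-values were adjusted, and no correlation within the 5 lungs of a single group is given.

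Ciliated cell genes moved with the club cell members. The mean of the ciliated list over the 10 lungs had r = 0.98 to Scgb1a1 (permutation p = 3.0e-05, adjusted p = 6.0e-05) and rho = 0.93 (permutation p = 0.00042, adjusted p = 0.0014), and r = 0.91 without sham lungs 3 and 5. In sham lung 5, 13 of the 16 ciliated genes were at least 2-fold below the mean of the other sham lungs, with a median log2 difference of -3.06, where 3.33% of all tested genes were that far below. The summed level of the list was 138 to 203 FPKM in IncPBF lungs and 109 to 209 FPKM in sham lungs, but Tppp3 alone held 104 of the 109 FPKM of sham lung 5. The other 15 genes summed to 4.67 FPKM there, to 38.2 to 87.7 FPKM in the other sham lungs and to 42.8 to 90.6 FPKM in the IncPBF lungs. Sntn was the gene of the list at 0 in sham lung 5. Foxj1, the master transcription factor of motile cilia, had 0.285 FPKM there (13 fragments) and 6.56 to 16.7 FPKM in the other sham lungs. Sox2, a transcription factor of the conducting airway epithelium that was picked after its values were seen, had 1 fragment in sham lung 5 (0.0279 FPKM) and 1.65 to 3.98 FPKM in the other sham lungs.

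Of 6 heart muscle genes 2 were at least 2-fold lower in sham lung 5, where 3.33% of all tested genes were. Their summed level of 8.71 FPKM there, against 27.8 to 47.1 FPKM in the other sham lungs, rested mostly on Actc1, a cardiac actin, with 6.42 FPKM against 24.7 to 43.3 FPKM. Of the secreted airway defence genes, 5 of 11 were at least 2-fold lower there. This list also varied between other sham lungs. In sham lung 2, 3 of the 11 were that far below the other sham lungs, where 284 of all 15388 tested genes were. In sham lung 1, 4 were that far above, where 231 of all tested genes were. Genes of the gas exchange region did not show the gap of sham lung 5. In sham lung 5 the median log2 difference to the other sham lungs was 0.06 over 11 alveolar type 2 genes, 0.26 over 10 alveolar type 1 genes and -0.24 over 6 general epithelial genes, and none of these genes was 2-fold lower. Sftpc, the surfactant protein of alveolar type 2 cells, had 11716 FPKM in sham lung 5 and 10934 to 14074 FPKM in the other sham lungs. Nkx2-1, the transcription factor that marks lung epithelium of airways and alveoli, had 60.2 FPKM there and 60.4 to 67.4 in the others. Whether the sequenced piece of sham lung 5 held less conducting airway was not tested, and the labels do not name a lobe.

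**Figure D3:**
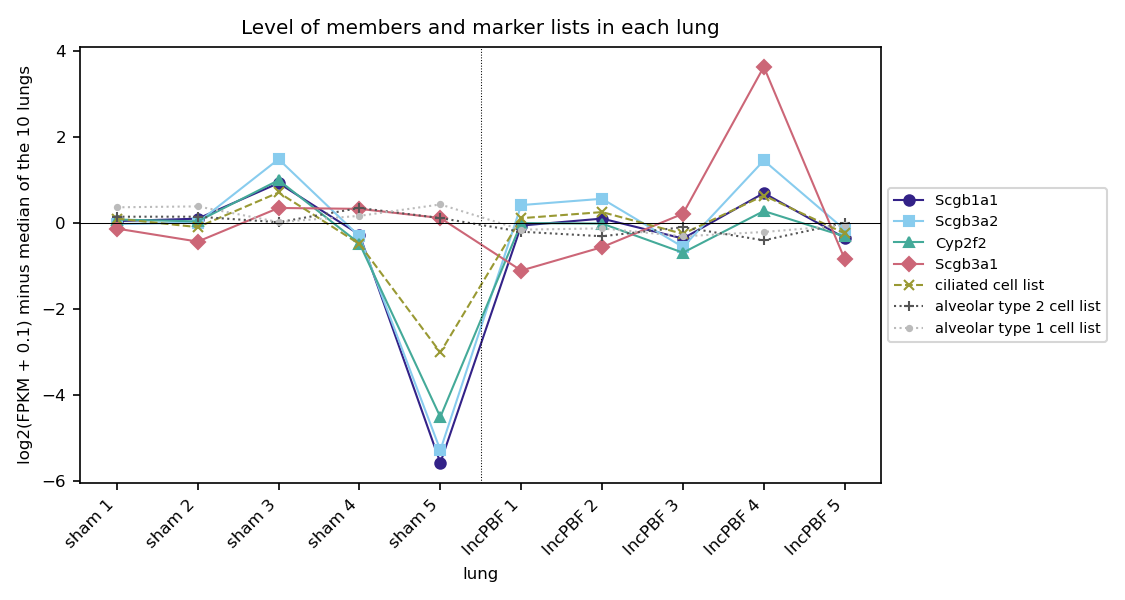
Log2(FPKM + 0.1) in each lung minus the median of the 10 lungs for Scgb1a1, Scgb3a2, Cyp2f2 and Scgb3a1, and the median of this difference over the tested genes of the ciliated, alveolar type 2 and alveolar type 1 lists (broken lines); lines join lungs for reading only. Scgb1a1, Scgb3a2, Cyp2f2 and the ciliated list drop in sham lung 5, Scgb3a1 peaks in IncPBF lung 4, and the alveolar lists stay within 0.44 of 0, with the type 1 list at -0.30 to -0.05 in the IncPBF lungs and at 0.03 to 0.44 in the sham lungs.

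In IncPBF lung 4 the picture was another one. The ciliated list was 0.71 higher on the log2 scale than in the other IncPBF lungs by its median, with 2 of 16 genes at least 2-fold higher, and of the wider club cell list 3 of 25 tested genes were at least 2-fold higher, where 1.64% of all tested genes were. Scgb1a1, Scgb3a2 and Cyp2f2 were higher there than in the other IncPBF lungs and lower than in sham lung 3. Clca1, a protein secreted by mucous cells, had 549 fragments in IncPBF lung 4 (8.42 FPKM), against 0.0137 to 0.128 FPKM in the other IncPBF lungs and 0 to 1 fragment in the sham lungs. Tff2, a trefoil peptide secreted with mucus, and Agr2, a disulfide isomerase needed for mucin folding, were picked after their values were seen, with 73 and 45 fragments there against at most 8 and 5 in a sham lung. Agr2 was not confined to that lung, since another IncPBF lung had 0.755 FPKM, against 2.02 FPKM in lung 4. Clca1 and Tff2 reached the filter on low values only through IncPBF lung 4. They were the 2 of 6 tested mucous cell genes that were at least 2-fold higher there. Muc1, a gene of the same list, had 70.5 FPKM there and 68.4 to 92.4 FPKM in the other IncPBF lungs. Heart muscle genes were also high in IncPBF lung 4, with 4 of 6 at least 2-fold above the other IncPBF lungs and a median log2 difference of 1.61, and a summed level of 33.6 to 100 FPKM in IncPBF lungs and of 8.71 to 47.1 FPKM in sham lungs, most of it from Actc1 (79.7 FPKM in IncPBF lung 4). In IncPBF lung 2, where the median log2 difference of these genes was 1.12, Scgb3a1 had 0.803 FPKM and Muc5b 0.0428 FPKM.

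Spdef, the transcription factor of mucous cell differentiation, did not follow, with 0.478 FPKM in IncPBF lung 4 and 0.251 to 0.564 FPKM in the other IncPBF lungs. Basal cell genes were near the limit of detection, with a summed level of 0.766 to 1.43 FPKM in IncPBF lungs and of 0.607 to 1.54 FPKM in sham lungs, and Krt5, a keratin of basal cells, had at most 2 fragments in a lung. The summed level of 5 oesophageal and squamous genes was at most 0.461 FPKM in any lung, and that of 3 thyroid genes at most 0.245 FPKM. Cartilage genes of the large airways were low as well, with summed levels of 2.15 to 3.79 FPKM, and Col2a1 had 17 to 37 fragments per lung.

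The genes most like each member, by Pearson's r of log2(FPKM + 0.1) over the 10 lungs after removal of the group means, were Gabrp, a subunit of a GABA receptor (r = 0.998), Foxj1 (r = 0.998) and Ccdc153 (r = 0.997) for Scgb1a1. They were Nek5 (r = 0.997), Gm19935 (r = 0.996) and Zfp474 (r = 0.996) for Scgb3a2, and Gabrp (r = 0.997), Ccdc153 (r = 0.997) and Gm19935 (r = 0.996) for Cyp2f2. All of these were lowest in sham lung 5. Gabrp had 0.119 FPKM there and 5.14 to 12.3 FPKM in the other sham lungs. Those most like Scgb3a1 were Clca1 (r = 0.95), Prpf3, a splicing factor (r = 0.91), and Timm10b, a mitochondrial import factor (r = 0.90), each highest in IncPBF lung 4. Without that lung these r were 0.08, 0.45 and 0.12. Without sham lung 5 the r of the genes most like the other members stayed between 0.963 and 0.987.

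Relatives of the members were nearly silent. Of the 66 other rows with a symbol that starts with Scgb, 63 were at 0 in every lung, and Scgb1c1 alone passed the filter, with a mean of 4.39 FPKM. Of the 12 other Bpif rows, Bpifb5 alone passed it, with a mean of 5.58 FPKM, and the 3 other Reg3 rows were at 0 throughout.

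A wider list of club cell genes held a further 27 genes, of which 25 passed the filter. Between the groups, 7 of the 25 were downregulated in the IncPBF group and 0 upregulated at an adjusted limma p of 0.05, against 16.2% and 16.1% of all tested genes. The club list did not stand alone in this, since 8 of 10 alveolar type 1 genes and 6 of 11 alveolar type 2 genes were downregulated and 0 upregulated, but with log2 Xist as a covariate 0 of 10 and 0 of 11 passed, and by exact permutation on unlogged FPKM 6 of 10 and 2 of 11, where 2.68% and 11.2% of all tested genes were downregulated in these fits. Examples were Clic5 (log2 fold change -0.74, SE 0.15, limma adjusted p = 0.00371) and Sftpa1 (-0.73, SE 0.15, limma adjusted p = 0.0034). Under that covariate their log2 fold changes were -0.62 (SE 0.27, limma adjusted p = 0.223) and -0.78 (SE 0.26, limma adjusted p = 0.125). Both calls were thus lost with larger SEs. The group difference in that fit rests mainly on IncPBF lung 1 against the sham lungs, so its size cannot tell sex from group. The median log2 fold change of the club list was 0.04 and that of all tested genes 0.01, and without sham lung 5 they were -0.23 and 0.01. Fmo2, a flavin monooxygenase, had 64.2 ± 13.6 FPKM in IncPBF lungs and 336 ± 64.5 in sham lungs (SD, n = 5 each), a log2 fold change of -2.39 (SE 0.16, limma adjusted p = 5.5e-06). Cyp2b10, a xenobiotic-metabolising cytochrome P450, fell by 1.63 on the log2 scale (SE 0.25, limma adjusted p = 0.000803), and Aldh1a1, which makes retinoic acid, fell by 1.52 (SE 0.21, limma adjusted p = 0.000369). Cyp4b1, another P450, fell by 1.01 (SE 0.07, limma adjusted p = 1.1e-05), with 44.8 to 48.6 FPKM after the fistula and 82.5 to 112 FPKM after sham surgery. The other downregulated genes were Selenbp1, Sec14l3 and Por, the electron donor of the P450 enzymes. Several of these genes are also transcribed by other lung cells than club cells. The 7 downregulated genes did not share the fall of Scgb1a1 in sham lung 5. Their log2 difference to the other sham lungs was -0.26 to 0.20 there. Whether club cells account for their lower level in the IncPBF group was not tested. Cyp2f2, the P450 among the members, had a log2 fold change of 0.63 and did not pass.

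Sham lung 5 was close to the other sham lungs in the 7 downregulated club genes. Their log2 difference between sham lung 5 and the other sham lungs ran from -0.26 to 0.20. In 14 of the 25 genes sham lung 5 was at least 2-fold lower, and none of these 14 passed the test between the groups. Both measures use sham lung 5, which widens the spread of the genes it is low in. Without sham lung 5, 11 of the 25 genes passed, all of them downregulated, including the same 7, where 13.0% of all tested genes were downregulated in that fit, and 3 of the 11 were among the 14. The added genes included Gsta3, a glutathione transferase (log2 fold change -0.93, SE 0.23, limma adjusted p = 0.0143), Cbr2, a carbonyl reductase (-0.46, SE 0.14, limma adjusted p = 0.0297), and Nupr1 (-0.39, SE 0.13, limma adjusted p = 0.0443). Over all alternatives the limma adjusted p of these 3 genes ran from 0.000722 to 0.839. With log2 Xist as a covariate, 3 of the 25 passed, Fmo2, Cyp4b1 and Selenbp1. In that fit 4.82% of all tested genes did (2.68% lower and 2.13% higher in the IncPBF group). The club genes whose calls were lost had log2 fold changes of -1.42 (Aldh1a1), -1.38 (Cyp2b10), -0.39 (Sec14l3) and -0.41 (Por) there. In the main fit these were -1.52, -1.63, -0.53 and -0.29.

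**Figure D4:**
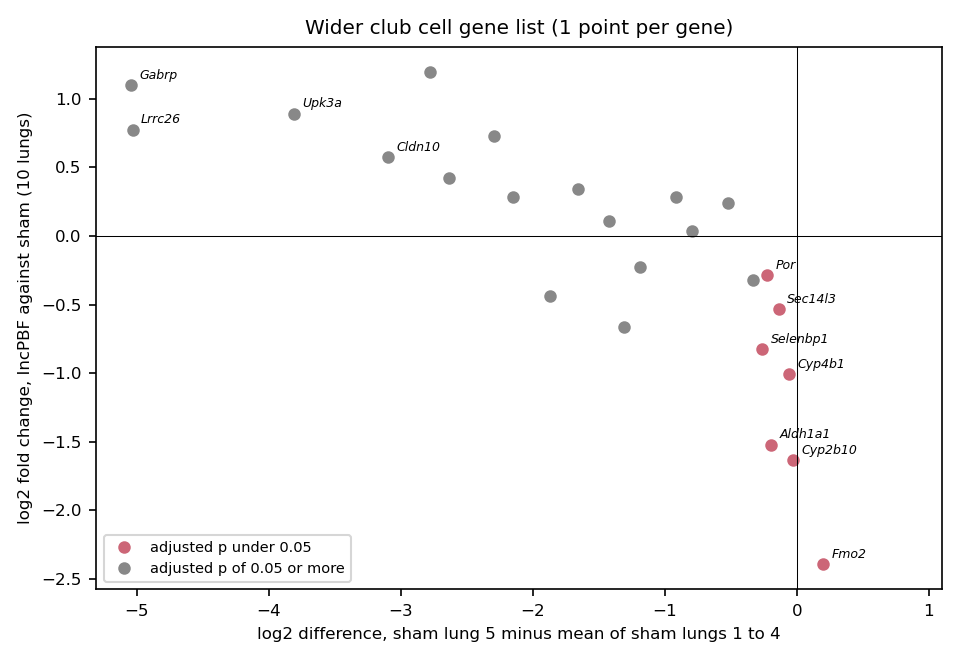
Each point is a gene of the wider club cell list (24 of the 25 tested are shown), with the log2 difference between sham lung 5 and the mean of sham lungs 1 to 4 on the horizontal axis and the limma log2 fold change of IncPBF against sham on the vertical axis. The 7 genes past an adjusted p of 0.05 (red) lie between -0.26 and 0.20 on the horizontal axis and below 0 on the vertical axis.

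Among the other lists of the airway epithelium, 0 of 16 ciliated genes passed by limma and 0 by limma-voom, where 32.3% and 35.8% of all tested genes did, and 1, Tppp3, passed an unadjusted p of 0.05, where 43.2% did. Without sham lung 5, Tppp3 passed (log2 fold change -0.28, SE 0.09, limma adjusted p = 0.0399), and over all alternatives its adjusted p ran from 0.0393 to 0.621. Of 11 tested genes of secreted airway defence, 1 was downregulated and 0 upregulated, where 16.2% and 16.1% of all tested genes were. This was Slpi, a protease inhibitor (log2 fold change -0.43, SE 0.14, limma adjusted p = 0.0323), whose call was lost in 13 of 25 alternatives (adjusted p 0.0141 to 0.375). The few calls of the list depended on the fit. With the replicate block, with limma-voom and without sham lung 4 its single call of 11 was Retnla, higher in the IncPBF group (limma adjusted p = 0.0436, 0.0433 and 0.0414). In these fits 2390, 3644 and 2476 of all 15388 tested genes were higher. Without a filter 2 of 15 were called, where 6.77% of genes were higher and 6.65% lower. These were Cxcl1 (log2 fold change 1.15, limma adjusted p = 0.0139) and Cxcl5 (1.12, limma adjusted p = 0.0364), both below the filter and with groups that did not overlap. Retnla, Cxcl1 and Cxcl5 were picked after their values were seen. Of 15 airway transcription factors, 1 was upregulated and 4 were downregulated, a share close to the 32.3% of all tested genes. Creb3l1, a factor of secretory cells, had a log2 fold change of 0.36 (SE 0.12, limma adjusted p = 0.0378), a call lost in 10 of 25 alternatives (adjusted p 0.00720 to 0.693). The downregulated factors were Cebpd (-1.05, SE 0.10), Notch2, the receptor that directs secretory fate (-0.48, SE 0.10), Cebpa (-0.37, SE 0.07) and Foxa2 (-0.19, SE 0.05), with limma adjusted p of 5.0e-05, 0.00373, 0.00306 and 0.0133. With log2 Xist as a covariate Cebpd alone of the 15 passed (log2 fold change -0.95, SE 0.18, limma adjusted p = 0.0195), where 4.82% of all tested genes did. In that fit Notch2, Cebpa and Foxa2 had log2 fold changes of -0.41 (SE 0.17), -0.31 (SE 0.13) and -0.27 (SE 0.08). Their limma adjusted p were 0.213, 0.211 and 0.101, so these calls were lost. The group difference in that fit rests mainly on IncPBF lung 1 against the sham lungs. Nkx2-1 had a log2 fold change of -0.00084 (SE 0.07, limma adjusted p = 0.994).

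Of 6 tested mucous cell genes, 1 was upregulated, near the 16.1% of all tested genes. This was Muc1, a membrane mucin (log2 fold change 0.25, SE 0.09, limma adjusted p = 0.0456, but 0.0897 without a filter, and lost in 13 of 25 alternatives, at 0.01004 to 0.582). Muc5ac, the gel-forming mucin of mucous cells, was below the filter, with 0.125 to 0.539 FPKM in IncPBF lungs (26 to 100 fragments) and 0.0160 to 0.109 FPKM in sham lungs (3 to 22 fragments). Its groups did not overlap, and its adjusted p without a filter was 0.0119 (limma, log2 fold change 1.39), in a fit that called 6.77% of genes higher and 6.65% lower. Muc16, a membrane mucin that also lies below the filter and was picked after its values were seen, went the other way in that fit (log2 fold change -1.16, limma adjusted p = 0.0363). Muc5b, the other gel-forming mucin of the airways, had overlapping groups and a limma adjusted p of 0.656 without a filter (log2 fold change 0.43). Trp63, the transcription factor of basal cells, was also below the filter, with 1 to 12 fragments in IncPBF lungs and 13 to 24 in sham lungs, and its adjusted p without a filter was 0.0337 (limma, log2 fold change -0.71). Of 3 tested neuroendocrine genes 1 was downregulated, where 16.2% of all tested genes were. This was Grp, a bombesin-like peptide (log2 fold change -0.53, SE 0.16, limma adjusted p = 0.0234, a call lost in 6 of 25 alternatives, adjusted p 0.0108 to 0.283). Of 13 airway cartilage genes 2 were tested, of which 1 was upregulated, where 16.1% of all tested genes were. This was Col9a2, a collagen chain (log2 fold change 2.14, SE 0.31, limma adjusted p = 0.000548). Its groups did not overlap, as for 23.2% of tested genes. The call was lost in 1 of 24 alternatives (limma adjusted p 8.9e-05 to 0.0762), with log2 Xist as a covariate, where the log2 fold change was 1.95 (SE 0.55). Col9a2 reached the filter only through the IncPBF group, with means of 0.995 and 0.152 FPKM. Without a filter 2 of 12 cartilage genes were higher and 0 lower, where 6.77% and 6.65% of genes were.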

How the data were processed

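RNA was isolated from P14 lungs of 5 IncPBF and 5 sham pups with a column kit (methods) or Trizol (labels). NEBNext libraries were sequenced on an Illumina instrument. The authors deposited FPKM per gene with the gene length, in 1 table that pools no lungs. The submitters' processing notes name Bowtie 0.12.2 and the builds GRCm38, mm10 and hg38, without their roles. The counter and strand setting are not given in the sources used here. The 5 IncPBF columns have a different short name from that in the titles and were mapped to their group, not to single samples. All 8 members have the coordinates of GENCODE M21 on GRCm38.

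FPKM multiplied by gene length gave whole fragments for 100% of values (tolerance 0.05 fragments), with 16103423 to 20318525 per lung. The FPKM were not scaled to these totals (divisor 0.958 to 1.07 times the total). Genes whose mean FPKM reached 0.5 (15388) were compared on log2(FPKM + 0.1) by limma 3.58.1 (eBayes with a trend, Benjamini-Hochberg adjustment) in R 4.3.3, IncPBF against sham, without covariates. Fold changes on this scale understate those of low genes. Single genes were compared by two-sided exact permutation over all assignments of lungs (smallest p 0.00794). Correlations used 100000 permutations. Ratios between 2 lungs have exact binomial intervals. Python 3.11.15 with scipy 1.17.1, pandas 2.3.3 and matplotlib 3.10.9 was used.

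The members and the 14 gene lists were chosen with earlier results of these data known. Named were all members, up to 4 genes per list and direction past the threshold, defining genes of the lists, the 3 genes most like each tested member, and at most the 2 most abundant relatives per family. Sox2, Tff2, Agr2, Muc16, Retnla, Cxcl1, Cxcl5, Actc1, Tppp3, Sntn, Selenbp1, Sec14l3, Por, Gsta3, Cbr2 and Nupr1 lie outside this rule and were named after their values were seen. A further club cell gene enters the counts and is not reported here. Alternatives changed the pseudocount (1, 0.01), the filter (1, none), the scaling (equal total, equal total without the members, median centring, quantile), the covariate (Xist, ciliated mean), the replicate block, eBayes without a trend, limma-voom, permutation on unlogged FPKM, a 2-fold minimum, and the omission of each lung in turn. On simulated data for this comparison (15282 genes) the test recovered 93% of 100 genes changed 2-fold and 100% of 99 changed 4-fold, with 1 false call. Recovery at the spread of the 4 tested members was not tested. In the main fit the SEs of their log2 fold changes were 0.75 (Scgb3a1) to 1.02 (Scgb3a2).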

Additional observations from a re-analysis of the deposited data

Results flagged for a closer look

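In 9 of 18 groups of 5 lungs (each of the 8 members and the mean of the ciliated list, in either group) 1 lung lay far from the other 4 on the log2 scale, judged by its gap to the nearest lung as a share of the whole range of the group (Dixon's critical value at 95%). Chance alone flags about 1 in 20 groups, but these groups are not independent, since Scgb1a1, Scgb3a2 and Cyp2f2 move together and share sham lung 5, and Bpifa1 was at 0 in every sham lung and could not be judged there. The 9 are therefore not to be counted against that share. Sham lung 5 was the low lung of its group in Scgb1a1 (0.816), Scgb3a2 (0.735) and Cyp2f2 (0.733). IncPBF lung 4 was the high lung of its group in Scgb3a1 (0.721), Bpifb1 (0.726), Muc5b (0.915) and Reg3g (0.860). The high lung of the sham group was lung 3 for Bpifb1 (0.824, 26 fragments) and lung 5 for Reg3g (0.739, 5 fragments).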

How the results depend on the processing

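Under every alternative 0 of the tested members passed the adjusted threshold, the replicate block included. With 1 lung left out the log2 fold change ran from -0.19 to 1.43 for Scgb1a1, from 0.054 to 1.75 for Scgb3a2, from -0.31 to 1.07 for Cyp2f2 and from -0.62 to 0.57 for Scgb3a1. The ends for the first 3 are those without sham lung 5 and without sham lung 3, and for Scgb3a1 those without IncPBF lung 4 and without IncPBF lung 1. The sign also turned with the ciliated mean as a covariate (Scgb1a1 -0.12, Cyp2f2 -0.27), with log2 Xist as a covariate (Scgb3a1 -1.19) and on unlogged FPKM (Cyp2f2 -0.065). The Xist fit compares mainly IncPBF lung 1, with 6 fragments of Scgb3a1, with the sham lungs. Without both IncPBF lung 4 and sham lung 5 the values were -0.37, -0.41, -0.22 and -0.60 for Scgb1a1, Cyp2f2, Scgb3a2 and Scgb3a1. Of all tested genes 4970 passed, but 741 with log2 Xist as a covariate, 3142 without both lungs, 471 with a 2-fold minimum, and 3869 to 5234 with 1 lung left out. Of 111 tested genes of the lists 31 passed, where 32.3% of all tested genes did. With log2 Xist as a covariate 4 of the 111 passed, where 4.82% of all tested genes did. Among the lost calls, the log2 fold change under that covariate was -1.42 for Aldh1a1, -0.62 for Clic5 and -0.78 for Sftpa1. In the main fit these were -1.52, -0.74 and -0.73. Over all tested genes, upregulated and downregulated genes numbered 2480 and 2490, and 3644 and 1870 with limma-voom. The causes were not tested.

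The replicate block left 4872 genes past the threshold. Lungs of the same number in both groups correlated at r = 0.01, 0.06, -0.07, 0.01 and 0.09 after removal of the group means, and 2 of 5 IncPBF lungs were most like the sham lung of their own number, so the numbers were not taken as pairs. Depth limits Bpifa1, Bpifb1, Muc5b and Reg3g, which rest on 0 to 45 fragments outside IncPBF lung 4.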
